A study of Mus musculus with 12 samples.

Results

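The 9 genes described here are grouped as cell surface, membrane trafficking and signalling genes, a role that is not shown here for Fam167b. They were followed across 2 regions of the mouse femur, the metaphysis and the diaphysis, in animals with and without a conditional deletion of Dlx3. They are Gfra1, Phlda1, Epcam, Cadm1, Tspan6, Gsg1l, Syt12, 1200009I06Rik and Fam167b, 9 of the 18335 gene symbols present in the expression tables of both regions. They were picked from these data because their RPKM (reads divided by transcript length in kilobases and by the mapped reads of the library) lay above wild type in both regions or led the list in one. The genotype difference of each of them is therefore given as a description with no test.

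The conditional knockout, Dlx3Oc-cKO in the labels and cKO from here on, removes Dlx3, a Distal-less homeobox transcription factor of bone-forming cells. The labels do not name the Cre driver. In the study's publication it is known as osteocalcin-Cre, which is active in mature osteoblasts and osteocytes, so other cells of the tissue keep the gene. All animals were 5-week-old males of mixed background, and the 4 groups were metaphysis cKO, metaphysis WT (wild type), diaphysis cKO and diaphysis WT, with 3 libraries each. The titles of the 12 libraries carry different numbers, but separate animals are not stated, so p-values refer to the scatter among libraries, which can include technical variation.

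Cells sense their neighbours and their surroundings through proteins of the plasma membrane. GDNF family ligands bind a GFRA co-receptor, which presents them to the receptor tyrosine kinase RET or to the adhesion molecule NCAM1, and receptors of this kind switch on the ERK kinase cascade, which in turn induces its own inhibitors. Adhesion molecules such as EPCAM and CADM1 bind their like on the next cell, tetraspanins gather such proteins into membrane domains, and synaptotagmins and the exocyst help carry vesicles to the membrane.

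The 9 genes lie on 8 chromosomes and span from 1.74 kb for Fam167b to 327 kb for Cadm1. Promoter sequence of 250 bases before the transcription start was at hand from RefSeq (GRCm38.p6) for 5 of them, namely Fam167b, 1200009I06Rik, Epcam, Gfra1 and Tspan6. A promoter is shown for the growth factor co-receptor, for the epithelial adhesion gene and for the gene with the most even response between regions, 5′ to 3′ on the gene's own strand. Capitals mark a match to one of 4 motifs that were searched on both strands, the homeodomain core TAATT, the Runx motif TGTGGT, the GC box GGGCGG and the AP-1 motif TGAGTCA.

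Gfra1 promoter, chr19:58455399-58455648, minus strand: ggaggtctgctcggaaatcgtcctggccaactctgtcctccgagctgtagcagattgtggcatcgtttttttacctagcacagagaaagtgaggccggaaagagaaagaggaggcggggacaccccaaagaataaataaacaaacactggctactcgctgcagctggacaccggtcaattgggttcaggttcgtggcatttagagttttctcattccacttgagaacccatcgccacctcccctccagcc

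Epcam promoter, chr17:87635729-87635978, plus strand: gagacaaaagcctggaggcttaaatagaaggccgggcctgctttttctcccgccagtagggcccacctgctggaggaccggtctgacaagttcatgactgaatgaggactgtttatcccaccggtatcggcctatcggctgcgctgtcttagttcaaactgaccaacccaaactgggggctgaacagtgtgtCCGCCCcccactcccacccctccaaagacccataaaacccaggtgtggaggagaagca

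Fam167b promoter, chr4:129578581-129578830, minus strand: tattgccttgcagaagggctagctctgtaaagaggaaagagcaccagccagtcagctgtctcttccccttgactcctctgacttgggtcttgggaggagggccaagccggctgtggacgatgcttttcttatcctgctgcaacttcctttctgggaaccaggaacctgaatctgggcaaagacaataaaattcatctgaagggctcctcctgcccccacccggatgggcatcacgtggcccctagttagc

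Of the 4 motifs, these windows held a single match, a GC box on the reverse strand of the Epcam promoter, 58 to 53 bases before the start. The windows of 1200009I06Rik and Tspan6 held none. Among all 32851 promoter windows of this length, 25.0% held TAATT, 14.05% held TGTGGT, 32.7% held GGGCGG and 4.46% held TGAGTCA. The G and C content was 52.4% for Gfra1, 56.4% for Epcam and 54.4% for Fam167b, beside a median of 52.4% over all windows. The Tspan6 window stood lower, with 36% G and C. A match or its lack describes these letters and says nothing of binding by a factor.

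Depth, worked out from the spacing of the lowest values, was 24.6 to 34.7 M reads per library in the metaphysis and 18.5 to 53.8 M in the diaphysis. Dlx3 itself checked the labels. In the metaphysis it stood at 1.98, 2.80 and 3.24 RPKM in cKO, against 8.37, 8.90 and 10.1 RPKM in WT (log2 difference -1.75 ± 0.18 SE, limma adjusted p = 0.00907). In the diaphysis it stood at 0.763, 1.55 and 1.17 RPKM in cKO, against 3.22, 7.64 and 13.1 RPKM in WT, without overlap, and the limma adjusted p was 1.000 (unadjusted p = 0.00118). Diaphysis WT replicate 1 stood apart. Its 12 osteoblast markers summed to 6335 RPKM, against 25076 and 36121 RPKM in the other diaphysis WT libraries, and its 10 erythroid markers summed to 157155 RPKM, against 73154 and 56385 RPKM. It was also the lowest diaphysis library for 9 of the 9 genes, so diaphysis differences are given with and without it. In bulk tissue, fewer cells of a type and less RNA per cell cannot be told apart.

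In all 9 genes the 3 cKO values lay above the 3 WT values in the metaphysis and again in the diaphysis. Over all genes tested, that order was found for 18.7% in the metaphysis, 2.24% in the diaphysis and 0.868% in both regions. As the genes were picked for it, nothing is read from these counts. The median log2 difference of the 9 genes, on the log2(RPKM + 0.1) scale that holds throughout, was 1.21 in the metaphysis and 0.99 in the diaphysis, beside medians over all genes of -0.036 and 0.0022. Without diaphysis WT replicate 1 the diaphysis median was 0.71. The plot of RPKM by library shows all values.

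**Figure D1:**
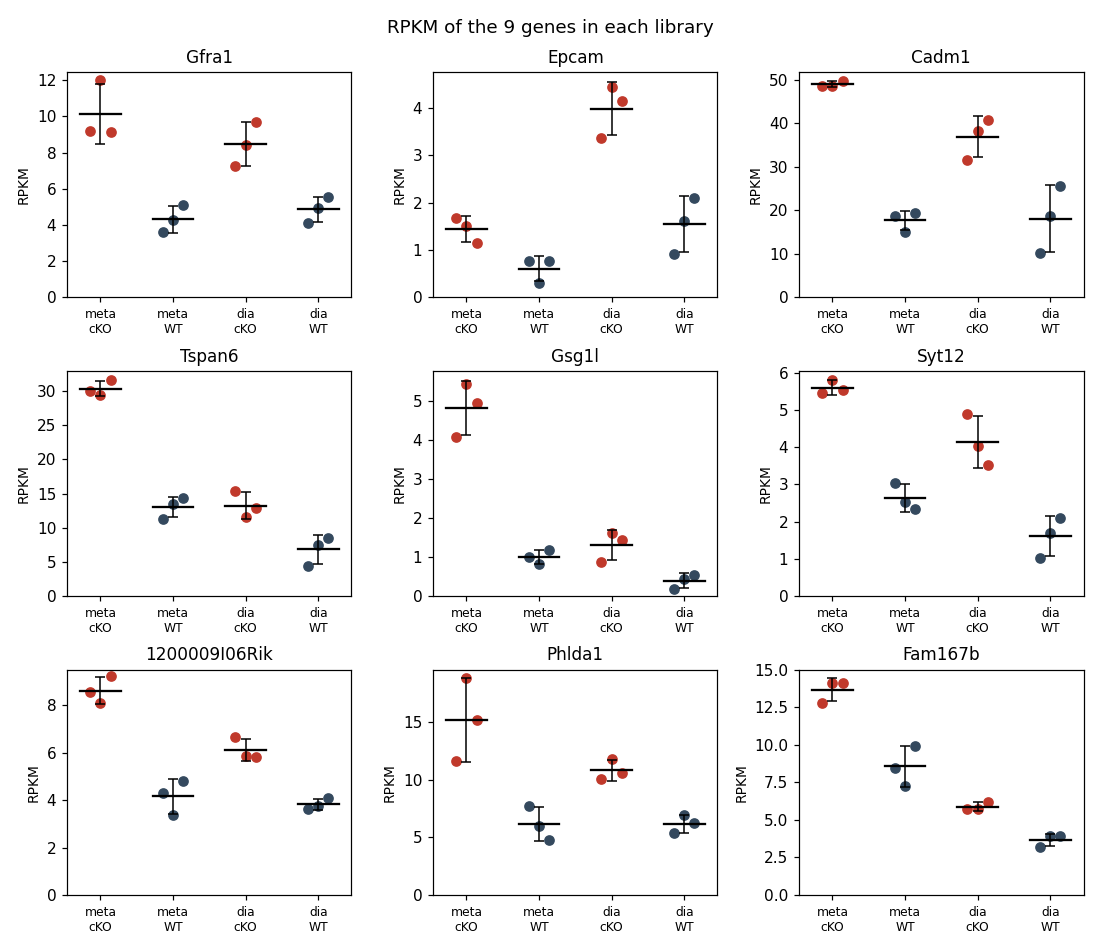
RPKM (vertical axes, from 0) of the 9 genes in each library, with cKO in red and WT in dark grey for the metaphysis (meta) and the diaphysis (dia), replicates 1 to 3 from left to right in each group. Bars show the mean and the SD of 3 libraries. The cKO points lie above the WT points in every panel and region, and Epcam alone is higher in the diaphysis than in the metaphysis in both genotypes.

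Among the receptors and signalling genes, Gfra1 encodes the GPI-anchored co-receptor that binds GDNF. In the metaphysis it had 9.21, 12.03 and 9.14 RPKM in cKO, against 3.59, 4.27 and 5.09 RPKM in WT, a ratio of means of 2.35 and a log2 difference of 1.21 ± 0.17 SE. In the diaphysis it had 7.26, 8.42 and 9.68 RPKM in cKO, against 4.12, 4.93 and 5.53 RPKM in WT (log2 difference 0.79 ± 0.19 SE, or 0.67 without diaphysis WT replicate 1). The groups did not overlap in either region. With diaphysis WT replicate 1 included, mean WT levels were much alike in the regions, with a metaphysis to diaphysis ratio of 0.888. Levels in the 2 regions come from tables that were normalized separately and are set side by side without a test.

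Phlda1 encodes a pleckstrin homology-like domain protein that growth factor signalling is known to induce. Its metaphysis values were 11.6, 18.8 and 15.1 RPKM in cKO, against 7.73, 5.98 and 4.75 RPKM in WT. Its diaphysis values were 10.1, 11.8 and 10.5 RPKM in cKO, against 5.38, 6.94 and 6.24 RPKM in WT. The cKO libraries spread more widely in the metaphysis (15.2 ± 3.62 RPKM, SD, n = 3) than in the diaphysis (10.8 ± 0.874 RPKM), while the WT means of 6.15 and 6.18 RPKM were almost the same. The log2 differences were 1.29 ± 0.22 SE in the metaphysis and 0.80 ± 0.16 SE in the diaphysis (0.70 without diaphysis WT replicate 1).

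Cadm1, a nectin-like immunoglobulin adhesion molecule, had the highest RPKM of the 9 genes in all 4 groups. In the metaphysis it reached 48.6, 48.5 and 49.8 RPKM in cKO, against 18.6, 15.1 and 19.4 RPKM in WT (log2 difference 1.47 ± 0.11 SE). In the diaphysis it reached 31.6, 38.3 and 40.7 RPKM in cKO, against 10.1, 18.6 and 25.6 RPKM in WT (1.11 ± 0.32 SE). The metaphysis cKO libraries had an SD of 0.744 RPKM on a mean of 49.0 RPKM, and the wide spread in the diaphysis came with its WT libraries, whose SD was 7.73 RPKM. Without diaphysis WT replicate 1 the diaphysis difference was 0.74.

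Cadm1 was the only 1 of the 9 genes with several RefSeq transcripts in the tables, 4 in all, and how its RPKM was divided among them played no part in its choice. The transcript NM_018770 held 79.2 ± 5.94% of the gene's RPKM in metaphysis cKO, against 74.2 ± 1.98% in metaphysis WT (SD, n = 3 each). In the diaphysis it held 76.0 ± 8.87% in cKO, against 70.6 ± 14.8% in WT (SD, n = 3 each). Neither region alone could pass, since an exact 2-sided permutation test of 3 against 3 libraries gives no p below 0.1. Over both regions the difference was 5.21 percentage points, which an exact 2-sided permutation test within regions (400 labelings, smallest possible p = 0.005) did not separate from the spread between libraries (p = 0.325). It was 1.43 points without diaphysis WT replicate 1 (exact permutation p = 0.755) and 8.85 points without diaphysis WT replicate 3 (exact permutation p = 0.1). Each of the 4 transcripts had a higher mean RPKM in cKO than in WT in both regions. The share of a transcript is an estimate by the authors' software from reads that the transcripts largely share.

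**Figure D2:**
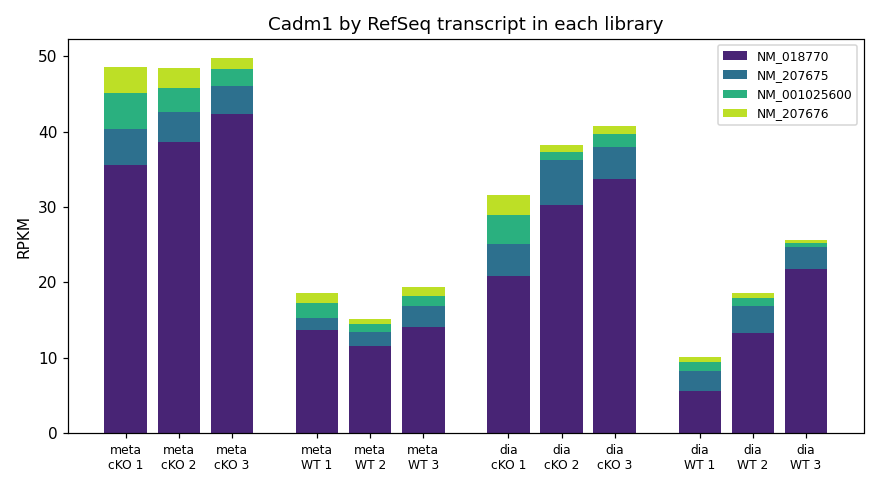
RPKM of Cadm1 (vertical axis, from 0) in each of the 12 libraries, stacked by RefSeq transcript, for the metaphysis (meta) and the diaphysis (dia). The dark bottom segment, NM_018770, makes up most of every bar, and the whole bar is higher in each cKO library than in each WT library of the same region.

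Epcam, the epithelial cell adhesion molecule, differed from the other 8 genes in its regional level. In the metaphysis it had 1.68, 1.499 and 1.15 RPKM in cKO, against 0.763, 0.307 and 0.759 RPKM in WT. In the diaphysis it had 3.36, 4.45 and 4.15 RPKM in cKO, against 0.920, 1.62 and 2.09 RPKM in WT. The metaphysis to diaphysis ratio of means was 0.362 in cKO and 0.395 in WT, so Epcam was lower in the metaphysis in both genotypes. Its log2 differences were 1.19 ± 0.36 SE in the metaphysis and 1.37 ± 0.32 SE in the diaphysis (1.06 without diaphysis WT replicate 1). The metaphysis values rest on few reads, about 21.7 in the poorest library over both regions, and Epcam passed the minimum of 1 RPKM in 3 of 6 libraries there only through the cKO libraries. Adding 1 RPKM in place of 0.1 RPKM before the logarithm gave 0.61 in the metaphysis.

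Because Epcam is best known from epithelia, 12 epithelial and skin markers were read beside it. They summed to 1.22 to 2.04 RPKM in metaphysis cKO, against 1.09 to 1.56 RPKM in metaphysis WT, and to 1.92 to 4.64 RPKM in diaphysis cKO, against 1.36 to 4.69 RPKM in diaphysis WT. Krt5, Krt14, Krt19, Grhl2, Esrp1 and Cldn3 were below 0.1 RPKM in every metaphysis library, and Krt8, Grhl2, Esrp1 and Cldn3 in every diaphysis library. The marker sums of the genotypes overlapped in both regions. On average 8 of the 12 markers were higher in metaphysis cKO (median log2 difference 0.14) and 7 of 12 in diaphysis cKO (median 0.0545). The part of epithelial RNA in the Epcam values was not tested.

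Tspan6, a tetraspanin, ranked next to Cadm1 in RPKM. Its metaphysis values were 30.02, 29.5 and 31.6 RPKM in cKO, against 11.4, 13.4 and 14.3 RPKM in WT (log2 difference 1.22 ± 0.11 SE). In the diaphysis they were 15.4, 11.6 and 12.9 RPKM in cKO, against 4.48, 7.47 and 8.56 RPKM in WT (0.99 ± 0.26 SE, or 0.71 without diaphysis WT replicate 1). Its level followed region and genotype together, and the mean of diaphysis cKO, 13.3 RPKM, was close to that of metaphysis WT, 13.0 RPKM.

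Gsg1l encodes a claudin-fold membrane protein known in neurons as an auxiliary subunit of AMPA-type glutamate receptors. It had the widest ratio between genotypes of the 9 genes. Metaphysis values were 4.08, 5.44 and 4.96 RPKM in cKO, against 1.01, 0.830 and 1.18 RPKM in WT, a ratio of means of 4.80 and a log2 difference of 2.16 ± 0.18 SE. Diaphysis values were 0.877, 1.63 and 1.43 RPKM in cKO, against 0.184, 0.453 and 0.555 RPKM in WT, a ratio of means of 3.31. The poorest library held about 18.9 reads of the gene, and Gsg1l missed the minimum of 1 RPKM in 3 of 6 libraries in the diaphysis. Its diaphysis difference of 1.55 ± 0.41 SE comes from the fit without that minimum, and it was 1.19 without diaphysis WT replicate 1 and 0.72 with 1 RPKM added in place of 0.1 RPKM.

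Syt12 encodes a synaptotagmin that does not bind calcium. In the metaphysis it had 5.44, 5.81 and 5.54 RPKM in cKO, against 3.04, 2.54 and 2.33 RPKM in WT (log2 difference 1.07 ± 0.13 SE). In the diaphysis it had 4.88, 4.03 and 3.51 RPKM in cKO, against 1.03, 1.69 and 2.11 RPKM in WT (1.35 ± 0.30 SE, or 1.08 without diaphysis WT replicate 1). With Epcam it was 1 of 2 genes whose difference was larger in the diaphysis. Without diaphysis WT replicate 1 this order turned for Epcam (1.06 in the diaphysis, 1.19 in the metaphysis), and the regions were level for Syt12.

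The gene listed as 1200009I06Rik is named Exoc3l4 in RefSeq, after its likeness to a subunit of the exocyst, which tethers vesicles to the membrane. It had 8.54, 8.10 and 9.21 RPKM in metaphysis cKO, against 4.30, 3.37 and 4.80 RPKM in metaphysis WT (log2 difference 1.05 ± 0.14 SE). It had 6.65, 5.87 and 5.81 RPKM in diaphysis cKO, against 3.61, 3.77 and 4.09 RPKM in diaphysis WT (0.66 ± 0.16 SE, or 0.62 without diaphysis WT replicate 1). Its diaphysis libraries lay close together, with an SD of 0.469 RPKM in cKO and 0.245 RPKM in WT.

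Fam167b had the smallest difference in the metaphysis and nearly the same one in both regions. Its metaphysis values were 12.8, 14.1 and 14.1 RPKM in cKO, against 8.48, 7.25 and 9.94 RPKM in WT (log2 difference 0.68 ± 0.13 SE). Its diaphysis values were 5.75, 5.71 and 6.22 RPKM in cKO, against 3.22, 3.91 and 3.93 RPKM in WT (0.67 ± 0.17 SE, or 0.57 without diaphysis WT replicate 1). The ratio of means was 1.60 in both regions, and the metaphysis to diaphysis ratio was 2.32 in both genotypes.

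**Figure D3:**
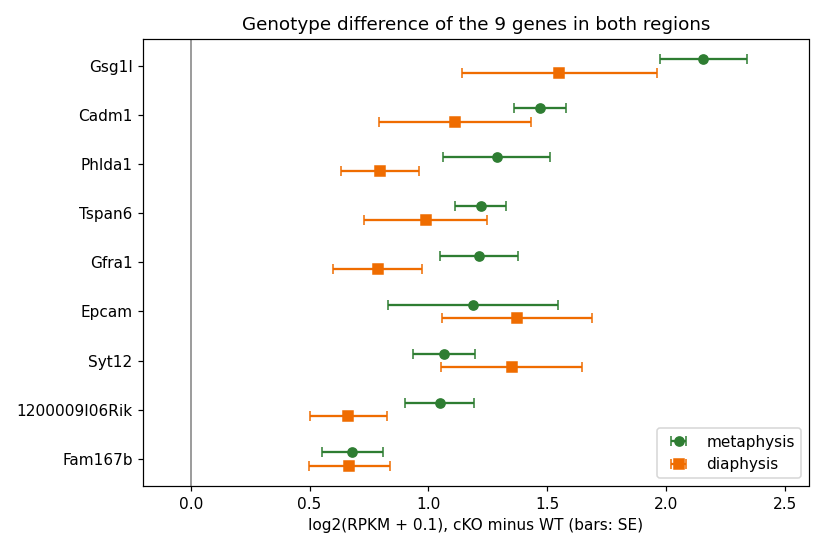
Difference in log2(RPKM + 0.1), cKO minus WT (horizontal axis), of the 9 genes (rows, largest metaphysis difference on top), with green circles for the metaphysis, orange squares for the diaphysis and bars for 1 SE from limma. All 18 points lie above 0, between 0.66 and 2.16, and the bars are wider in the diaphysis for 7 of 9 genes.

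The regional levels in WT placed Gsg1l (metaphysis to diaphysis ratio 2.53), Fam167b (2.32), Tspan6 (1.91) and Syt12 (1.64) higher in the metaphysis. 1200009I06Rik, Phlda1, Cadm1 and Gfra1 lay between 1.09 and 0.888, and Epcam at 0.395. These ratios include diaphysis WT replicate 1, and each would be lower without it. The difference between regions of the genotype difference, metaphysis minus diaphysis, ranged from -0.28 ± 0.32 SE for Syt12 to 0.61 ± 0.47 SE for Gsg1l. The value of Gsg1l comes from the fit without the minimum. For Fam167b the value was 0.013 ± 0.19 SE. As the genes were picked on the genotype values of both regions, these differences are a description with no test. Without diaphysis WT replicate 1, the lowest diaphysis library for each of the 9 genes, the values ranged from -0.014 ± 0.24 SE for Syt12 to 0.97 ± 0.36 SE for Gsg1l. They were 0.73 ± 0.22 SE for Cadm1, 0.59 ± 0.30 SE for Phlda1, 0.54 ± 0.25 SE for Gfra1 and 0.51 ± 0.20 SE for Tspan6. That of Epcam turned to 0.12 ± 0.44 SE. In the limma fit over the 12321 genes past the minimum in both regions, 0% were called at an adjusted p under 0.05, with 495 genes at an unadjusted p under 0.05, and without that library 241 genes (1.96%) were called.

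Lists of relatives and partners of the 9 genes were read next, with the 9 genes themselves left out. The lists were drawn up with earlier results of these data known. In the metaphysis 89 genes of the 10 lists were tested, of which 20 rose and 6 fell at a limma adjusted p under 0.05. Over all genes tested 7.51% rose and 3.89% fell, and 11.4% were called in all. Of the 9 genes themselves, 8 were past this threshold in the metaphysis, all but Epcam, and none of the 8 tested was in the diaphysis, from which nothing is read. In the diaphysis 0 of 84 genes of the lists passed, as did 0% of all 12540 genes tested with limma, of which 86 had an unadjusted p under 0.05. Cell type markers also differed between genotypes in the metaphysis, where 11 of 12 osteoblast markers and 0 of 10 erythroid markers were higher on average in cKO. The part of cell content in the calls of any list was not tested. The plot of related genes by list gives every tested gene.

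The metaphysis calls depended on which libraries were in the fit. With a library left out, 15, 14 and 3 genes of the lists rose when cKO replicate 1, 2 or 3 was omitted, and 3, 5 and 11 when WT replicate 1, 2 or 3 was omitted. Egr1 and Tspan18 passed in all 6 of these fits, and Cd82, Exoc6b, Tspan11 and Tspan31 in none. With the spread estimated from all 12 libraries none of the 26 passed, and every one of the 26 kept its direction under each alternative run. With a library left out their direction could not change, as their genotypes did not overlap in the metaphysis.

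On the list of the GDNF family and its partners, 2 of 5 tested genes rose in the metaphysis and none fell. The list's median log2 difference was 0.62, beside -0.036 over all genes. Both genes that rose are partners and not members of the family. They were Ncam1, an alternative partner of GFRA1 (9.53, 9.78 and 8.46 RPKM in cKO, against 6.45, 6.43 and 5.42 RPKM in WT, log2 difference 0.59 ± 0.11 SE, adjusted p = 0.0219), and Sdc3, a heparan sulphate proteoglycan. Sdc3 had 70.02, 64.3 and 75.4 RPKM in cKO, against 43.7, 40.4 and 47.7 RPKM in WT (0.67 ± 0.10 SE, adjusted p = 0.0138). The receptor kinase Ret was low in both genotypes, with 0.525 ± 0.157 RPKM in metaphysis cKO, against 0.560 ± 0.0445 RPKM in metaphysis WT, and with 0.624 ± 0.250 RPKM in diaphysis cKO, against 0.545 ± 0.111 RPKM in diaphysis WT (SD, n = 3 each).

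The ligand Gdnf averaged 0.0718 RPKM in metaphysis cKO, against 0.0563 RPKM in metaphysis WT, and 0.0627 RPKM in diaphysis cKO, against 0.1003 RPKM in diaphysis WT. Among the other ligands in the metaphysis, Nrtn averaged 1.37 ± 0.592 RPKM in cKO, against 0.735 ± 0.380 RPKM in WT, Artn 0.716 RPKM in cKO, against 0.640 RPKM in WT, and Pspn 0.0937 RPKM in cKO, against 0.137 RPKM in WT. The distant relative Gdf15 averaged 0.616 RPKM in cKO, against 0.316 RPKM in WT. Gfra2, the co-receptor closest to Gfra1 in the list, averaged 3.10 ± 0.407 RPKM in metaphysis cKO, against 4.49 ± 0.499 RPKM in metaphysis WT (log2 difference -0.52 ± 0.14 SE, adjusted p = 0.0590 by limma). Gfra4 averaged 2.32 ± 0.245 RPKM in cKO, against 1.54 ± 0.559 RPKM in WT (0.62 ± 0.27 SE, adjusted p = 0.173 by limma), and Gfra3 averaged 0.130 RPKM in cKO, against 0.121 RPKM in WT. The ligands and co-receptors of the family that were tested, Nrtn, Gfra2 and Gfra4, did not pass the threshold.

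Of 13 ERK feedback and target genes, 6 rose in the metaphysis and none fell, with a median log2 difference of 0.55. Egr1, an immediate early transcription factor, had 20.4, 34.3 and 24.4 RPKM in cKO, against 7.23, 6.39 and 9.20 RPKM in WT (log2 difference 1.76 ± 0.21 SE, limma adjusted p = 0.0101). The phosphatase gene Dusp4 (1.05 ± 0.17 SE, adjusted p = 0.0161 by limma), the Sprouty inhibitor Spry4 (0.85 ± 0.13 SE, adjusted p = 0.0160) and the ETS factor Etv5 (0.56 ± 0.10 SE, adjusted p = 0.0209) also rose. Dusp6 and Spred1 completed the 6. In the same metaphysis libraries the summed osteoblast, chondrocyte, osteoclast and endothelial markers were higher in cKO and the erythroid and B lymphoid ones lower, and their part in these rises was not tested. In the diaphysis none passed, and the same list had a median of 0.085.

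Egr1 stood at 8.32, 9.13 and 7.69 RPKM in diaphysis cKO, against 2.95, 14.1 and 9.21 RPKM in diaphysis WT, and Dusp4 averaged 1.58 ± 0.0822 RPKM in cKO, against 1.74 ± 1.04 RPKM in WT (SD, n = 3 each). In both, diaphysis WT replicate 1 was lowest and the cKO values lay among the WT values. The difference between regions did not pass for any of the 83 list genes tested. Without diaphysis WT replicate 1 it passed for 8 of the 83, beside 1.96% of all 12321 genes in the same fit. They were Egr1 (2.21 ± 0.32 SE, limma adjusted p = 0.0322), Dusp4 (1.51 ± 0.29 SE), Spry4 (1.16 ± 0.23 SE) and Tspan18 (1.56 ± 0.30 SE), along with Syt6, Tspan4, Igf2 and, in the opposite direction, Tspan32. Apart from Egr1 each of them had a limma adjusted p of 0.0493, next to the threshold. In that fit the osteoblast marker sums ran in opposite directions in the regions. The diaphysis WT libraries left had 25076 and 36121 RPKM, against 14332 to 21065 RPKM in diaphysis cKO. Metaphysis WT had 19932 to 24945 RPKM, against 29276 to 32028 RPKM in metaphysis cKO. The part of cell content in these differences between regions was not tested.

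Of the genes near Phlda1, its relative Phlda3 rose in the metaphysis (19.0 ± 1.44 RPKM in cKO, 13.5 ± 1.41 RPKM in WT, SD, log2 difference 0.50 ± 0.11 SE, limma adjusted p = 0.0313). It was 1 of 6 tested genes of the PH-like domain and IGF1 receptor list. Igf1, Igf2, Igf1r, Irs1 and Irs2 did not pass, and the list's median was 0.080.

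The tetraspanins moved in both directions. Of 24 tested in the metaphysis, 6 rose and 4 fell, with a median log2 difference of 0.18. Tspan18 rose (8.25, 9.14 and 9.46 RPKM in cKO, against 3.90, 4.30 and 4.90 RPKM in WT, log2 difference 1.02 ± 0.12 SE, limma adjusted p = 0.0101), as did Tspan4 (0.72 ± 0.10 SE, adjusted p = 0.0129). Tspan8 fell by 0.63 ± 0.11 SE (adjusted p = 0.0180 by limma), with 14.1 ± 1.67 RPKM in cKO, against 21.8 ± 0.908 RPKM in WT. Tspan17, Tspan11, Tspan31 and Tspan3 also rose, and Tspan32, Cd37 and Cd82 also fell. Tspan11 passed the minimum of 1 RPKM only through its cKO libraries (1.33, 1.28 and 1.36 RPKM in cKO, against 0.421, 0.759 and 0.536 RPKM in WT), so its call had to be a rise, and without it 19 genes of the lists rose. Cd37, known from B lymphocytes, went with lower B lymphoid markers in the metaphysis, of which 9 summed to 281 to 332 RPKM in cKO, against 425 to 531 RPKM in WT, and the part of those cells in the result was not tested.

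Among 8 tested nectin-type adhesion genes and CADM partners, Pvrl3, which encodes nectin-3, rose in the metaphysis (8.16 ± 0.408 RPKM in cKO, 5.53 ± 0.682 RPKM in WT, SD, log2 difference 0.56 ± 0.12 SE, limma adjusted p = 0.0280). Epb4.1l3, whose protein binds the cytoplasmic tail of CADM1, fell by 1.12 ± 0.23 SE (adjusted p = 0.0268 by limma), with 1.72 ± 0.545 RPKM in cKO, against 3.75 ± 0.320 RPKM in WT. The list's median was 0.23. None of the 6 tested Epcam relatives and partners passed (median -0.053), and none of the 2 tested AMPA receptor genes, Gria3 and Cacng7, which had 1.37 ± 0.0836 and 1.63 ± 0.2998 RPKM in cKO, against 1.62 ± 0.490 and 1.81 ± 0.667 RPKM in WT (SD, n = 3 each). Of the 15 AMPA receptor genes in the metaphysis table the other 13 were under the minimum.

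Of 13 tested synaptotagmins and fusion partners, 2 rose in the metaphysis, with a list median of 0.0027. Syt6 had 3.52, 5.09 and 4.24 RPKM in cKO, against 1.46, 1.18 and 1.91 RPKM in WT (log2 difference 1.45 ± 0.21 SE, limma adjusted p = 0.0136), and the syntaxin gene Stx1a differed by 0.60 ± 0.15 SE (adjusted p = 0.0446). Of 11 exocyst genes, Exoc6b rose (0.44 ± 0.11 SE, adjusted p = 0.0430 by limma) and its paralog Exoc6 fell by 0.49 ± 0.11 SE (adjusted p = 0.0344). Fam167a, the paralog of Fam167b, had 14.2, 11.1 and 8.86 RPKM in metaphysis cKO, against 4.80, 6.12 and 5.38 RPKM in metaphysis WT (1.03 ± 0.18 SE, adjusted p = 0.0183 by limma). In the diaphysis Fam167a averaged 5.13 ± 2.21 RPKM in cKO, against 6.28 ± 5.19 RPKM in WT.

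**Figure D4:**
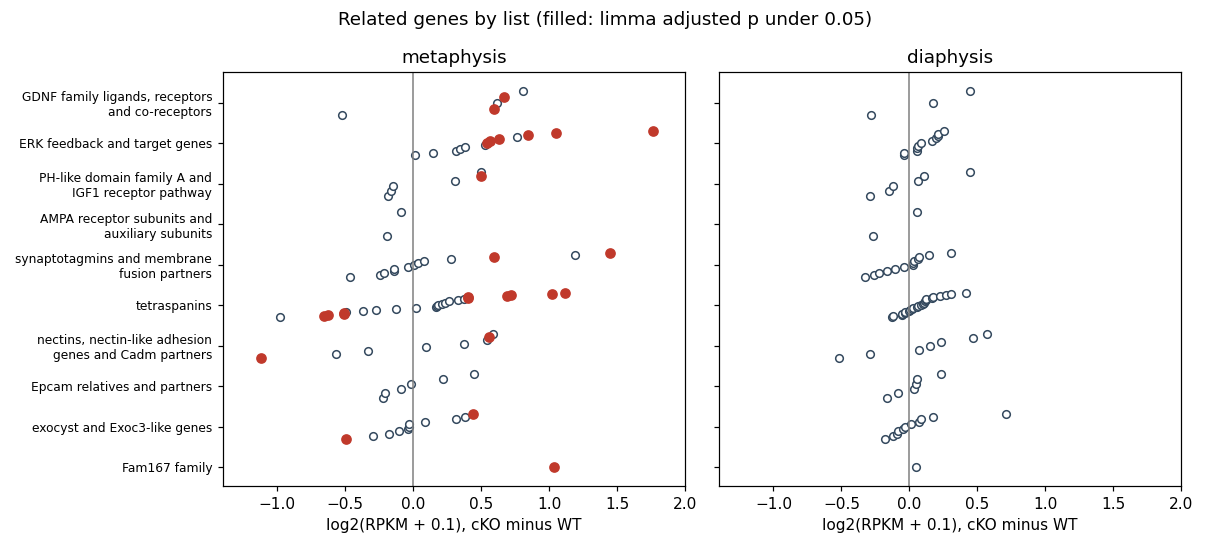
Difference in log2(RPKM + 0.1), cKO minus WT (horizontal axes), of the tested genes of each list (rows) in the metaphysis (left) and the diaphysis (right), where each circle is 1 gene and filled circles have a limma adjusted p under 0.05. In the metaphysis 20 filled circles lie above 0 and 6 below, and the diaphysis has none.

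The nearest protein-coding genes on either side that passed the minimum in both regions were looked up after the values of the 9 genes were known. Of 18 such neighbours, 3 passed in the metaphysis and 15 did not, beside 11.4% of all genes tested there. Rhod, 6.48 kb from Syt12, had 8.11, 11.96 and 10.1 RPKM in cKO, against 3.80, 3.91 and 4.27 RPKM in WT (log2 difference 1.296 ± 0.15 SE, limma adjusted p = 0.0101). Srpx2, a secreted sushi-repeat protein gene 9.997 kb from Tspan6, had 26.9, 33.3 and 34.7 RPKM in cKO, against 13.5, 13.8 and 15.0 RPKM in WT (1.15 ± 0.12 SE, adjusted p = 0.00883 by limma). Cdc42bpb, 39.3 kb from 1200009I06Rik, differed by 0.58 ± 0.09 SE (adjusted p = 0.0136) and lost its call without cKO replicate 3 or WT replicate 2, where the adjusted p was at most 0.0581. Rhod and Srpx2 passed with any library left out.

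In the diaphysis Rhod had 6.94, 5.81 and 8.43 RPKM in cKO, against 1.73, 5.15 and 5.21 RPKM in WT, without overlap, and Srpx2 had 10.1, 17.9 and 14.04 RPKM in cKO, against 2.95, 11.1 and 14.7 RPKM in WT, with overlap. Neither passed the limma test there. The library kit does not mark the strand, and the annotation places A930001C03Rik opposite Syt12, Gm16277 opposite Gfra1 and Gm10425 opposite 1200009I06Rik. The overlap was judged on whole gene spans, and overlap of exons was not checked. Where exons overlap, reads of these antisense genes cannot be told apart from those of their partners. By position in mm9, Syt12 lies at chr19:4445908-4477447, Tspan6 at chrX:130425607-130432968 and 1200009I06Rik at chr12:112655228-112669393.

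For each of the 9 genes the 2 genes of most similar pattern were found by Pearson's r of deviations from the region mean over the 12 libraries. The measure takes in the genotype difference that chose the 9 genes, the points share libraries, and r is given as a description among 12313 genes searched. Cadm1 was nearest to Kank4 (r = 0.989) and Rtn4rl1 (0.981), Tspan6 to Emilin3 (0.985) and Adamts15 (0.970), and Gsg1l to Enpp1 (0.978) and Adamts15 (0.972). Syt12 and Epcam were both nearest to Dkk1, a secreted Wnt inhibitor (0.967 and 0.954), followed by Dlx4 (0.957) for Syt12 and Col25a1 (0.949) for Epcam. Gfra1 was nearest to Enpp1, which makes the mineralization inhibitor pyrophosphate (0.953), and B230217C12Rik (0.939). Fam167b and 1200009I06Rik were nearest to Dlx4 (0.957 and 0.948), with Hey2 (0.955) and Homer3 (0.937) next, and Phlda1 to Ltbp2 (0.934) and Fhod1 (0.923).

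Dkk1 averaged 35.0 RPKM in metaphysis cKO, against 15.1 RPKM in metaphysis WT, and 26.3 RPKM in diaphysis cKO, against 9.12 RPKM in diaphysis WT. Enpp1 averaged 29.3 RPKM in metaphysis cKO, against 10.6 RPKM in metaphysis WT, and 18.3 RPKM in diaphysis cKO, against 8.10 RPKM in diaphysis WT. Taken as deviations from the group means, which leaves genotype out, the same 18 pairs had r from 0.393 to 0.979, and none of them was among the 2 nearest.

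Markers of the cells in the tissue also differed between genotypes. In the metaphysis the 12 osteoblast markers summed to 29276 to 32028 RPKM in cKO, against 19932 to 24945 RPKM in WT, with 11 of 12 higher in cKO, and the 7 endothelial markers to 155 to 162 RPKM in cKO, against 102 to 107 RPKM in WT, with 7 of 7 higher. The 10 chondrocyte markers summed to 1439 to 2252 RPKM in cKO, against 820 to 1044 RPKM in WT, and the 7 osteoclast markers to 4020 to 4569 RPKM in cKO, against 2128 to 2701 RPKM in WT. The 10 erythroid markers summed to 34462 to 44422 RPKM in cKO, against 46044 to 52295 RPKM in WT. The 9 skeletal muscle markers summed to 2922, 9155 and 2378 RPKM in cKO, against 5476, 8351 and 5559 RPKM in WT, with none of the 9 higher on average in cKO. Metaphysis cKO replicate 2, the library with the highest muscle sum, held the highest metaphysis values of Egr1 and of 4 of the 9 genes. Those 4 were Gsg1l, Syt12, Gfra1 and Phlda1, while cKO replicate 3, with the lowest muscle sum, was highest for 4 others. WT replicate 2, with the next highest muscle sum, was lowest for Egr1 and for 5 of the 9 genes. Without cKO replicate 2 the log2 differences were 1.56 for Egr1, 1.12 for Phlda1, 1.08 for Gfra1, 2.07 for Gsg1l and 1.04 for Syt12. The part of these cells in the metaphysis values of the 9 genes was not tested. In the diaphysis the osteoblast sums overlapped, with 14332 to 21065 RPKM in cKO, against 6335 to 36121 RPKM in WT. Diaphysis WT replicates 2 and 3, at 25076 and 36121 RPKM, stood above every cKO library, and the part of osteoblast content in the diaphysis values of the 9 genes was not tested.

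The 8 osteocyte markers summed to 415 to 599 RPKM in metaphysis cKO, against 240 to 371 RPKM in metaphysis WT, and to 515 to 573 RPKM in diaphysis cKO, against 132 to 498 RPKM in diaphysis WT. Every cKO sum lay above every WT sum in both regions. Single markers were mixed, with 5 of 8 higher on average in metaphysis cKO and 6 of 8 in diaphysis cKO. Each of the 9 genes was higher without overlap in both regions, and the part of osteocyte content in their values was not tested. Neuron and Schwann cell markers, read because Gsg1l and Syt12 are best known from neurons, summed to 13.1 to 14.5 RPKM in metaphysis cKO, against 14.1 to 15.3 RPKM in metaphysis WT, and to 14.6 to 15.7 RPKM in diaphysis cKO, against 15.9 to 18.1 RPKM in diaphysis WT. The ranges overlapped in the metaphysis, and in the diaphysis every cKO sum was below every WT sum. Most single markers went the other way. On average 7 of 11 were higher in metaphysis cKO (median log2 difference 0.16) and 7 of 12 in diaphysis cKO (median 0.074).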

How the data were processed

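Messenger RNA of femur metaphysis and diaphysis was sequenced from TruSeq libraries, which do not mark the strand, per the labels' protocols. The authors deposited 1 table per region with RPKM per RefSeq transcript and library, per the file headers (24456 transcripts in the metaphysis, 24824 in the diaphysis). Software listed in the submitters' processing notes, with no roles, is Partek 6.6, TopHat 1.3.2, CASAVA 1.8.2 and Bowtie 0.12.7.0, and the build is mm9. The handling of shared reads is not given in the sources used here.

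Transcripts were summed per symbol. A limma fit (limma 3.58.1 in R 4.3.3, variance trended on the mean) was made per region on log2(RPKM + 0.1), a scale that understates the change of low genes, for genes with at least 1 RPKM in 3 of 6 libraries, 2-sided, Benjamini-Hochberg adjusted over all genes tested. Genotype differences were compared between regions in a joint limma model of the 12 libraries. Every adjusted p for a gene is from the fit of its region or, for a difference between regions, from the joint model. The fit was tested on simulated data for 1 region. Depth was inferred from the lowest values, of which 72.8% to 77.4% lay within 0.1 of whole reads where chance gives 20%, too few to rebuild counts, so no count test was run. Read numbers per gene are approximate. Antisense and neighbouring genes come from GENCODE vM1 on mm9, promoters from RefSeq (GRCm38.p6).

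The 9 genes and all lists were chosen with earlier results of these data known. Named genes are Dlx3, the 9 genes, every GDNF family gene, up to 4 called genes per other list by smallest p, and the 2 nearest genes per member. Other called list genes were named after their values were seen. Summaries used Python 3.11.15, pandas 2.3.3 and numpy 2.4.6. Alternatives tried were another pseudocount, other filters, upper-quartile scaling, 1 fit of all libraries, the top transcript and each library left out.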

Additional observations from a re-analysis of the deposited data

How the results depend on the processing

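For the 9 genes, 141 of 146 log2 differences under an alternative moved by less than 1 SD between libraries, 5 moved further, all with 1 RPKM added, and none reversed. With 1 of 3 libraries left out, a shift past 1 SD was arithmetically impossible. Nor could any of the 9 genes reverse there, as their genotypes did not overlap, so those settings say nothing of robustness. The median of the 9 genes with 1 RPKM added was 1.07 in the metaphysis, against 1.21, and 0.72 in the diaphysis, against 0.99. The 1441 genes called in the metaphysis became 789 with no filter, 7 with all 12 libraries in 1 fit, and 163 to 1424 with a library left out. Of the list genes, 20 higher became 12, 0 and 3 to 15, and 6 lower became 2, 0 and 0 to 5, in the same order of settings. The cause was not tested. In the diaphysis 0 genes were called under every alternative (75 to 572 at an unadjusted p under 0.05, the most without WT replicate 1), and the lowest adjusted p was 0.0968 without that library. The 0 calls for the difference between regions became 2 with no filter and 0 to 241 with a library left out, 241 without diaphysis WT replicate 1. Of 286 alternative results of called list genes, 135 lost the call and none reversed, which could not occur with a library left out. For Dlx3 and the called neighbours 6 of 44 lost the call. No paired analysis was possible because replicate numbers follow record order and pair nothing. The lowest values rest on about 18.9 reads (Gsg1l) and 21.7 reads (Epcam).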
